A study of Rattus norvegicus with 17 samples.

Results

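The clustered protocadherins are neuronal cell adhesion proteins of the cadherin superfamily, encoded in 3 gene clusters named alpha, beta and gamma that lie next to each other on rat chromosome 18. Genes were taken as members when their symbol began with Pcdha, Pcdhb or Pcdhg followed by a digit, c, a or b, which gave 36 of the 34322 genes in the count table: 2 alpha, 19 beta and 15 gamma genes. The rule used names only and no measured value. The alpha cluster was represented by Pcdha4 and Pcdhac1 only, and the other alpha genes were not analysed here.

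Hippocampal RNA from 17 adolescent Long-Evans rats aged 36 to 38 days was sequenced in 3 diet groups, in which the treatment was given to the pregnant dam and not to the sampled offspring. Ethanol-exposed rats (ET, 5 libraries) came from a dam on a liquid diet with 6.7% ethanol from gestational day 0 to 20, pair-fed rats (PF, 6 libraries) from a dam yoked to the intake of an ET dam on the control liquid diet, and ad libitum rats (AD, 6 libraries) from a dam on free chow. Each group held both sexes and the animals of a group were littermates from 1 litter, so diet and litter cannot be told apart and every p-value below measures the spread between littermates. Total counts ranged from 10853947 to 17498392 per library with a median of 13538433.

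In neurons each clustered protocadherin gene of the alpha and gamma clusters is made of its own large first exon, which encodes the extracellular cadherin repeats and the membrane span, joined to a few constant exons at the end of the cluster that all genes of that cluster use. Beta genes consist of the variable exon alone and have no constant exons. Single neurons switch on a small and partly random set of variable genes through binding of CTCF and cohesin at each promoter, whereas the C-type genes such as Pcdhac1, Pcdhgc3 and Pcdhgc5 are used more uniformly. The proteins bind to themselves across neighbouring membranes and are known for self-avoidance of dendrites and axons, for dendrite arborisation and for neuron survival in the forebrain.

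Values below are normalized counts, the deposited counts scaled so that libraries share 1 effective depth, and they are not divided by gene length, so they compare libraries for a gene and not genes with each other. A gene was called when its edgeR quasi-likelihood p-value, adjusted by Benjamini-Hochberg over all genes tested, was below 0.01 and its log2 fold change exceeded 1.5 in absolute size. Tests used the 14 libraries of the study's final set, and values per library cover all 17. Of 9 marker genes of hippocampal neurons, none was at 0 throughout. The 3 libraries outside the final set (1 per diet group) carried at least 87542 normalized counts of Ttr, a choroid plexus gene, against at most 14603 in the other 14, and AD replicates 1 and 2 had Y-linked counts that went against their sex labels. In bulk tissue a change in the number of cells of a type and a change in RNA per cell cannot be told apart.

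Of the 36 members, 35 had more than 3 raw counts in every library. The exception was Pcdhb1, the first gene of the beta cluster, whose raw count did not exceed 0.667 in any library. The 3 clusters did not move together. Summed over its members, the alpha cluster held 2373 ± 176 (SD, n = 5) normalized counts in ET, 2434 ± 190.2 (n = 6) in PF and 2440 ± 181 (n = 6) in AD. The beta cluster held 1887 ± 165 in ET, 1807 ± 157 in PF and 1849 ± 169 in AD. The libraries of the 3 groups overlapped in both clusters. The gamma cluster held 4547 ± 831 in ET, 22129 ± 1569 in PF and 4665 ± 260.2 in AD. Its PF libraries ran from 19936 to 24587, above all ET libraries (3406 to 5668) and all AD libraries (4177 to 4879). The PF mean was 4.87 times the ET mean and 4.74 times the AD mean, while ET stood at 0.975 times AD. A fragment counted for several gamma genes enters this sum more than once.

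**Figure D1:**
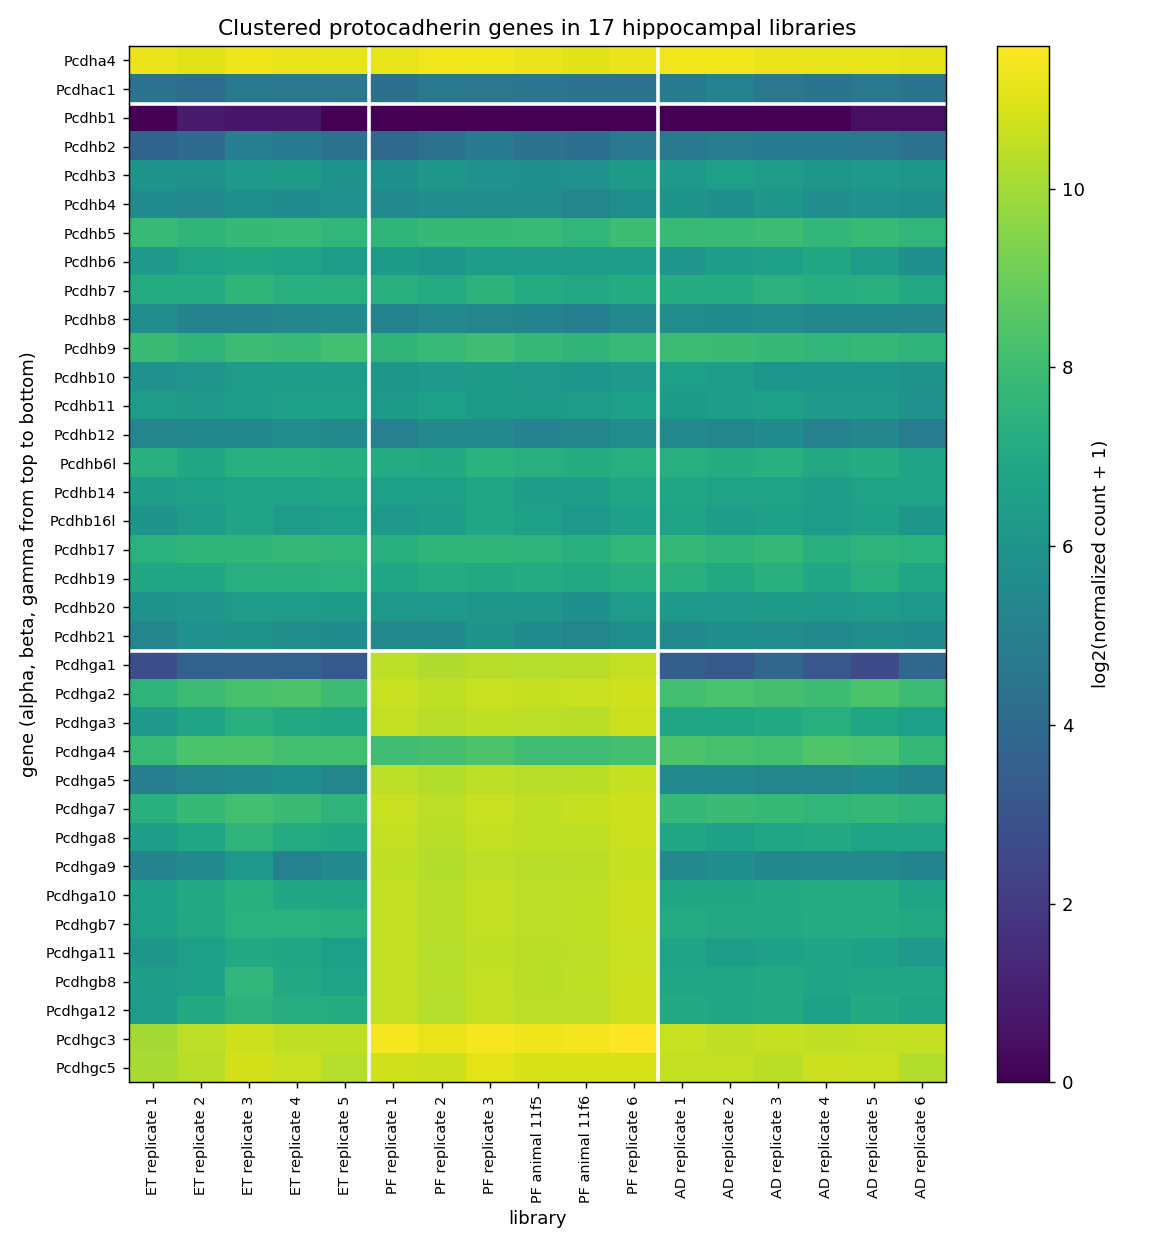
Heat map of the 36 clustered protocadherin genes (rows, alpha, beta and gamma from top to bottom) in the 17 libraries (columns, grouped as ET, PF and AD), coloured by log2(normalized count + 1). The gamma block of the 6 PF libraries stands out, except for Pcdhga4 and Pcdhgc5, and the alpha and beta rows keep similar colours across the groups.

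The alpha cluster comes first in the genomic order. The alpha proteins are known in the mouse for the orderly spread of serotonergic axons. Pcdha4, the only variable alpha gene in the table, had 2453, 2069, 2518, 2398 and 2321 normalized counts in ET replicates 1 to 5, 2111, 2459.8 and 2592 (lowest, median and highest) in PF and 2207, 2375 and 2633 in AD. The groups overlapped throughout, with a log2 fold change of -0.03 (SE 0.06) for ET over PF, -0.01 (SE 0.06) for ET over AD and 0.02 (SE 0.06) for PF over AD. The C-type gene Pcdhac1, whose first exon differs from those of the variable alpha genes, had 20.5, 16.5, 24.7, 22.9 and 22.9 in ET, 18.4, 21.2 and 24.9 in PF and 21.7, 23.8 and 35.9 in AD. AD replicate 2 gave the highest Pcdhac1 value. Neither alpha gene was called in any of the 3 comparisons, against 2.13% of all 16068 genes called lower in ET than in PF and 2.02% of 15960 called higher in PF than in AD.

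The beta genes, single-exon genes whose proteins carry the cadherin repeats but lack the shared intracellular end, showed no call between diets. Of 18 beta genes tested, 0 were called in ET against PF, 0 in ET against AD and 0 in PF against AD. Their median log2 fold change was 0.08 for ET over PF, 0.02 for ET over AD and -0.01 for PF over AD, beside 0.005, 0.003 and -0.003 over all genes tested. At an unadjusted p below 0.05 the counts were 0, 0 and 2 of 18, beside 11.9%, 2.74% and 16.4% of all genes. The pair in PF against AD was Pcdhb3, with a log2 fold change of -0.34 (SE 0.12, edgeR adjusted p = 0.164), and Pcdhb4, with -0.24 (SE 0.10, edgeR adjusted p = 0.301), both named after their values were seen. Neither passed the threshold.

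The most counted beta genes are given by library. Pcdhb9 had 236, 190.3, 248, 225 and 279 normalized counts in ET, 191, 220.1 and 261 in PF and 186, 215 and 243 in AD. Pcdhb5 had 226, 192, 215, 229 and 200.04 in ET, 194, 216 and 254 in PF and 197, 232 and 245 in AD. Both genes overlapped between all groups. For Pcdhb17 the libraries read 169.6, 191, 189, 213 and 196 in ET, 158, 189 and 206 in PF and 157, 186 and 213 in AD. Pcdhb7 read 141, 139.9, 189.6, 156 and 155 in ET, 128, 139 and 179 in PF and 126, 146 and 173 in AD. ET replicate 3 was the highest of its group for Pcdhb7, but PF and AD libraries reached into the ET range. Pcdhb6l, a beta gene named after its likeness to Pcdhb6, gave 163, 117, 159.9, 160.1 and 147 in ET, 131, 150.1 and 167 in PF and 108, 142 and 152 in AD. Pcdhb21, the last gene of the cluster, gave 37.5, 56.5, 62.0, 52.6 and 49.0 in ET, 37.9, 47.0 and 62.5 in PF and 44.5, 49.2 and 54.1 in AD. In none of the 19 beta genes did the PF libraries all lie above the ET and AD libraries. The coefficient of variation between libraries of a group had a median of 13.4% in ET, 12.3% in PF and 11.99% in AD over the 18 beta genes above the count floor.

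Beta promoters share a sequence element that gamma promoters do not carry in the same letters. RefSeq promoter windows in the build GRCr8 (250 bases before to 50 bases after the gene start) were at hand for 32 of the 36 members, of which 17 were beta, 14 gamma and 1 alpha. The 9 letters GGTGGCGCT, the most common run of that length among the beta windows and chosen after the sequences were seen, occurred in the windows of 14 of 17 beta genes, of 0 of 14 gamma genes and in 0.457% of all 33469 rat promoter windows on either strand. These lines show the element, in capitals, with 20 bases on either side in 5 beta genes, in the 5′ to 3′ direction, chosen for spread along the cluster:
Pcdhb2 (chr18:29279913-29279961, plus strand): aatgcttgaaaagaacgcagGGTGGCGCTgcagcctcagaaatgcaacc
Pcdhb5 (chr18:29302394-29302442, plus strand): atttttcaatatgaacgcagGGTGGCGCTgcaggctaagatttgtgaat
Pcdhb7 (chr18:29328988-29329036, plus strand): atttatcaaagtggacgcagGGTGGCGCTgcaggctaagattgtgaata
Pcdhb9 (chr18:29379238-29379286, plus strand): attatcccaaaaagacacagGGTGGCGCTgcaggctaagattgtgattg
Pcdhb21 (chr18:29492139-29492187, plus strand): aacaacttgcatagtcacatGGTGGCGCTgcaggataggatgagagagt
A match of letters is a description of the window and says nothing about what binds there.

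The gamma cluster was where the diet groups parted. In ET against PF, 12 of the 15 gamma genes were called lower in ET, in a comparison where 2.13% of all genes tested were called lower and 0.0373% higher. In PF against AD the 12 called higher in PF were set beside 2.02% of all genes called higher and 0.0251% lower. In ET against AD, 0 gamma genes were called, and 0.0127% of 15749 genes were called lower and 0 higher. The ET against PF and PF against AD comparisons share the PF libraries, so their calls are not independent. The median log2 fold change over the 15 gamma genes was -3.44 for ET over PF, 0.02 for ET over AD and 3.55 for PF over AD. Of the 12 genes, the 11 other than Pcdhga1 lost their call in both comparisons once the count of Pcdhga1 in the same library was subtracted from theirs. That loss follows from count differences that were nearly the same in these genes, given further on.

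**Figure D2:**
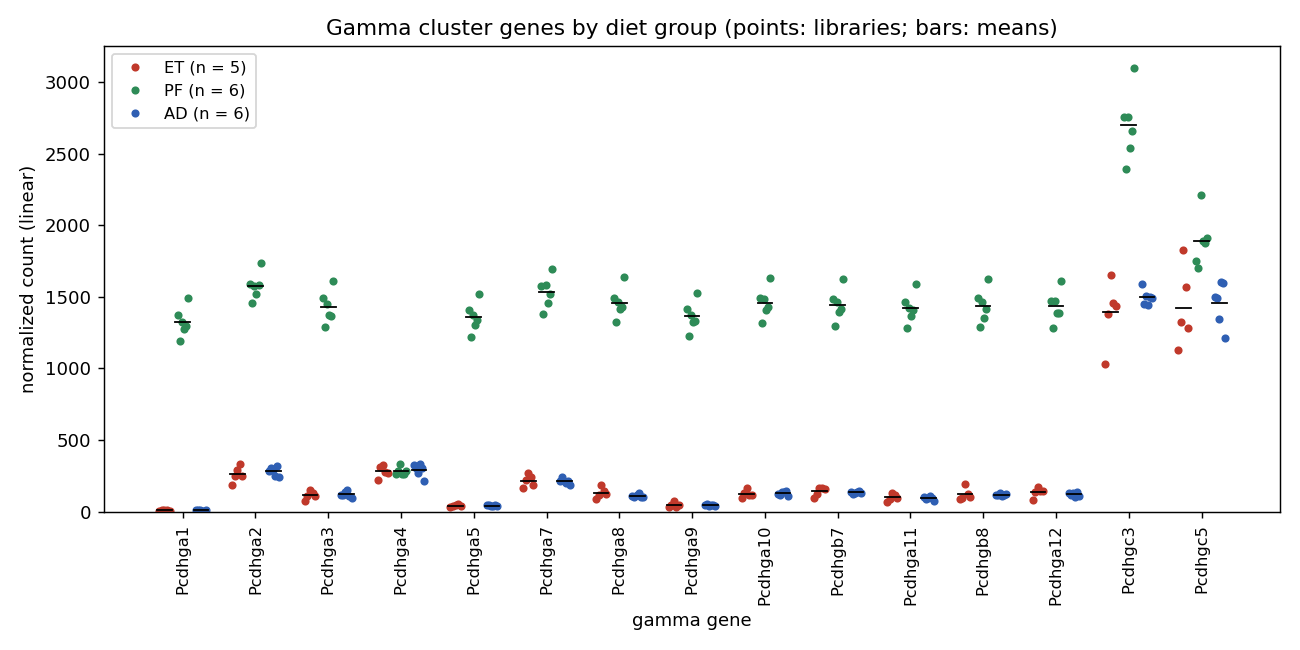
Normalized counts (linear axis) of the 15 gamma genes in the 5 ET, 6 PF and 6 AD libraries, with a point for each library and a bar at each group mean. For 13 genes all PF points lie above all ET and AD points, whereas those of Pcdhga4 and Pcdhgc5 overlap with at least 1 other group.

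The A-type genes encode adhesion proteins that differ in their outer cadherin repeats. Pcdhga1, the first of them, had 5.70, 11.3, 11.6, 11.3 and 8.07 normalized counts in ET, 1191, 1312 and 1493 in PF and 5.54, 9.28 and 13.9 in AD. Its log2 fold change was -7.13 (SE 0.14, edgeR adjusted p = 8.09e-10) for ET over PF and 7.01 (SE 0.13, edgeR adjusted p = 7.36e-12) for PF over AD. Raw counts of Pcdhga1 in ET and AD did not exceed 13, and those in PF reached 1499.7. Pcdhga2 had 188, 250.03, 294, 332 and 248 in ET, 1457, 1581 and 1735 in PF and 245, 285 and 320.4 in AD. Its log2 fold change was -2.57 (SE 0.14, edgeR adjusted p = 5.23e-07) for ET over PF and 2.45 (SE 0.07, edgeR adjusted p = 2.47e-10) for PF over AD.

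The remaining A-type genes past the threshold lay between Pcdhga1 and Pcdhga2 in fold change. Pcdhga5 had 30.5, 37.9, 44.9, 56.2 and 37.4 normalized counts in ET, 1222, 1354 and 1522 in PF and 36.2, 41.5 and 47.7 in AD, a log2 fold change of -5.01 for ET over PF. Pcdhga9 had 34.9, 45.2, 72.6, 33.3 and 45.8 in ET, 1225, 1354 and 1528 in PF and 36.6, 44.3 and 53.1 in AD, a log2 fold change of -4.87. These genes had few counts in ET and AD, like Pcdhga1, and gave the largest fold changes after it. Pcdhga3 had 77.4, 108, 153, 132 and 111 in ET, 1292, 1411 and 1609 in PF and 92.4, 114 and 154 in AD (-3.60 on the log2 scale). Pcdhga8 had 87.8, 114, 187, 142 and 123 in ET, 1322, 1448 and 1638 in PF and 99.1, 107 and 128 in AD (-3.44). Pcdhga10 had 98.6, 131, 164, 118 and 113 in ET, 1316, 1458 and 1629 in PF and 108, 127 and 143 in AD (-3.57). In each of these genes the lowest PF library exceeded the highest ET and AD library. Pcdhga11 had 70.4, 91.1, 129, 119 and 93.6 in ET, 1283, 1413 and 1589 in PF and 75.5, 97.3 and 107 in AD (-3.78). Pcdhga12 had 82.5, 135, 172, 147 and 143 in ET, 1285, 1429 and 1612 in PF and 99.2, 125 and 135 in AD (-3.40). Pcdhga7 had 165, 219, 269.8, 239 and 185 in ET, 1383, 1548 and 1694 in PF and 186, 213 and 239.5 in AD (-2.84).

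The B-type genes, the second variable subgroup of the gamma cluster, followed the same course. Pcdhgb7 had 94.9, 126, 166, 167 and 157 normalized counts in ET, 1293, 1437 and 1623 in PF and 127, 136 and 142 in AD, with a log2 fold change of -3.30 (SE 0.15) for ET over PF. Pcdhgb8 had 86.5, 93.6, 196, 126 and 106 in ET, 1288, 1437 and 1621 in PF and 109.7, 116 and 131 in AD, with a log2 fold change of -3.48 (SE 0.20). ET replicate 3 stood highest in its group for Pcdhgb8 and was still far below every PF library.

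Among the variable gamma genes, 1 showed no difference beyond the spread between libraries and was named for that after its values were seen. Pcdhga4 had 223, 313, 329, 275 and 271 normalized counts in ET, 259.8, 275 and 331 in PF and 212, 305 and 333 in AD. The log2 fold change was -0.06 (SE 0.11, edgeR adjusted p = 0.943) for ET over PF and 0.01 (SE 0.11, edgeR adjusted p = 0.98) for PF over AD. Pcdhga4 lies between Pcdhga3 and Pcdhga5 in the cluster, both of which were called.

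The C-type gamma genes, of which Pcdhgc5 and Pcdhgc3 were listed, had smaller log2 fold changes. Pcdhgc3, which in the mouse promotes dendrite branching in cortical neurons, had 1034, 1381, 1655, 1457 and 1436 normalized counts in ET, 2390.4, 2707 and 3098 in PF and 1445, 1496 and 1588 in AD. Every PF library exceeded every other library, with a log2 fold change of -0.96 (SE 0.13, edgeR adjusted p = 0.000675) for ET over PF and 0.85 (SE 0.07, edgeR adjusted p = 2.26e-06) for PF over AD. These passed the p-value limit and not the fold limit. Pcdhgc5, a gene mainly of the postnatal brain, had 1128, 1322, 1824, 1568 and 1283 in ET, 1704, 1883 and 2212 in PF and 1215, 1497 and 1604 in AD. Its log2 fold change was -0.39 (SE 0.13, edgeR adjusted p = 0.224) for ET over PF and 0.41 (SE 0.09, edgeR adjusted p = 0.0156) for PF over AD, neither past the threshold. ET replicate 3 reached into the PF range of Pcdhgc5.

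On the scale of counts, in place of fold changes, the gamma genes fell into a simpler pattern. The PF mean exceeded the mean of the 11 ET and AD libraries by nearly the same number of normalized counts in 13 gamma genes, from 1251 to 1341 with a median of 1318, although their means in ET and AD ran from 9.71 to 1450 (Pcdhga1 to Pcdhgc3). The difference was 1316 ± 41.4 (SE) for Pcdhga1, 1321 ± 41.6 for Pcdhga9, 1308 ± 45.9 for Pcdhga12, 1304 ± 39.7 for Pcdhga2 and 1251 ± 109 for Pcdhgc3. These standard errors come from libraries that all the genes share, so they do not measure differences between genes, which are given within libraries further on. In 13 of the 15 gamma genes, the same ones, every PF library lay above every ET and AD library. That pattern was seen in 2.9% of the 15911 genes with a mean raw count of at least 10. The 13 were singled out by these same values and share the PF libraries, so they are not separate observations. Among the other gamma genes the difference was -5.94 ± 16.5 for Pcdhga4 and 447 ± 95.1 for Pcdhgc5. Genes with every PF library above the rest numbered 0 of 19 for beta and 0 of 2 for alpha. Beta differences ran from -11.2 to 6.71 normalized counts, and those of Pcdhac1 and Pcdha4 were -2.14 ± 1.74 and 26.2 ± 92.3.

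**Figure D3:**
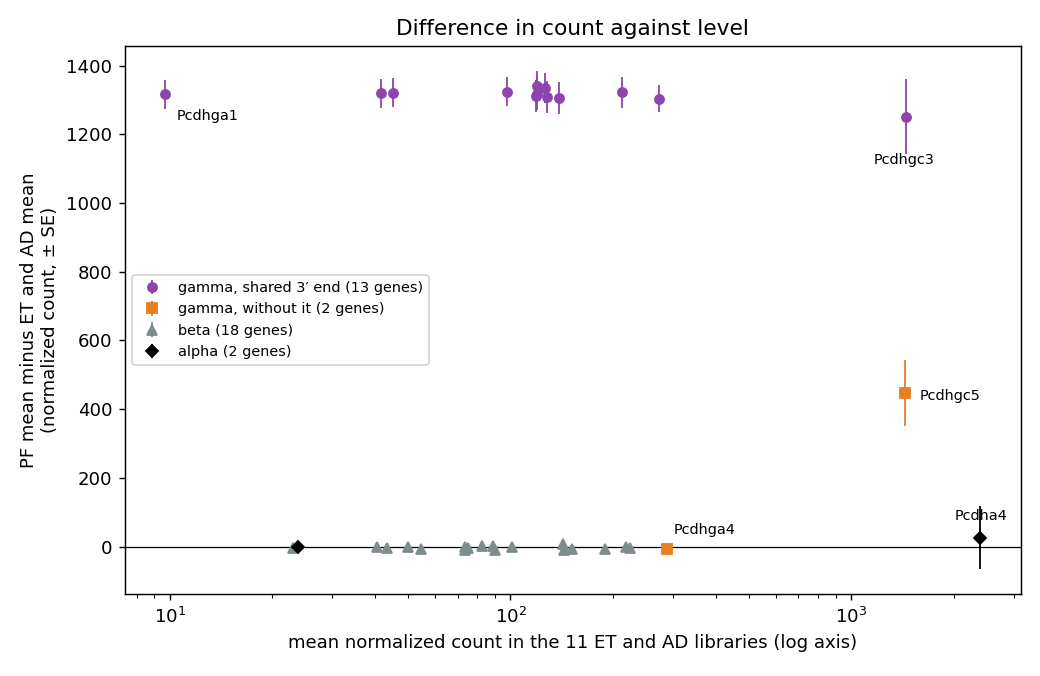
Difference between the PF mean and the mean of the 11 ET and AD libraries (vertical axis, normalized counts, ± SE) against the mean in ET and AD (horizontal log axis) for the 35 genes above the count floor. The 13 gamma genes that share a 3′ end lie on a level line between 1251 and 1341 across their range of levels, Pcdhgc5 is at 447, and Pcdhga4, the beta and the alpha genes lie near 0.

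The 13 genes also share an annotated end, a grouping made after their values were seen. In the GRCr8 gene list, Pcdhga1, Pcdhga2, Pcdhga3, Pcdhga5, Pcdhga7, Pcdhga8, Pcdhga9, Pcdhga10, Pcdhga11, Pcdhga12, Pcdhgb7, Pcdhgb8 and Pcdhgc3 are annotated to the same 3′ end, where the constant exons lie, and Pcdhga4 and Pcdhgc5 end elsewhere. The files were made against another build (mRatBN7.2), whose annotation was not used here. The study's methods let a read be assigned to more than 1 feature and required a mapping quality of at least 10. Whether fragments on the constant exons were counted for every gene in PF and not in ET and AD was not tested, because reads were not analysed here.

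Differences between gamma genes within 1 library cancel any amount that all of them carry. After the Pcdhga1 count of the same library was taken off, Pcdhga2 stood at 253 ± 51.8 (SD) in ET, 251 ± 24.2 in PF and 272 ± 31.5 in AD. Pcdhga9 stood at 36.8 ± 14.8, 40.8 ± 8.17 and 34.4 ± 8.03, and Pcdhgc3 at 1383 ± 224, 1375 ± 141 and 1487 ± 51.0. For the 12 genes with the shared end other than Pcdhga1, the PF mean of this difference departed from the ET mean by -16.3 to 19.4 normalized counts, within 2 SE for 12 of 12. It departed from the AD mean by -112 to 34.8, within 2 SE for 10 of 12. The exceptions were Pcdhga8, at 135 ± 8.74 in PF against 100.1 ± 11.5 in AD, and Pcdhga10, at 135 ± 13.6 against 117 ± 15.7. For Pcdhga8 the libraries of the groups all but touched, with a lowest PF value of 120.17 and a highest AD value of 120.13. In 0 of the 12 genes did the PF libraries lie all above or all below the others.

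The same can be read from the raw counts of single libraries. Among the 12 genes with the shared end other than Pcdhgc3, the highest exceeded the lowest by 181 to 331 raw counts in ET, by 200 to 381 in AD and by 230.3 to 278 in PF. As a ratio of highest to lowest, this was 22.1 to 33.0 in ET and 17.7 to 57.8 in AD, but 1.16 to 1.22 in PF. Pcdhga1 was the lowest of the 12 in all 17 libraries.

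**Figure D4:**
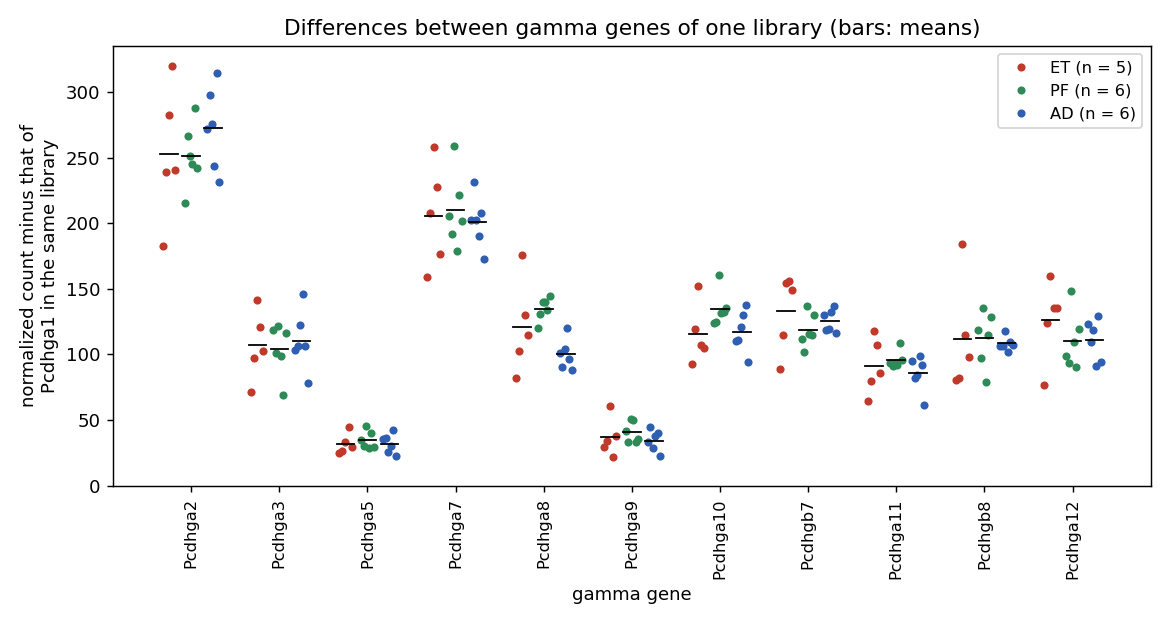
Normalized count of 11 gamma genes with the shared 3′ end minus that of Pcdhga1 in the same library, with a point for each ET, PF and AD library and a bar at each group mean. ET overlaps both other groups for every gene, and PF and AD overlap for each but Pcdhga8, where they all but touch. Pcdhga2 and Pcdhga7 are highest and Pcdhga5 and Pcdhga9 lowest in each group.

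The Pcdhga1 count was also subtracted, before the edgeR test, from the 13 genes with the shared end, a set chosen after seeing the data. After that, 0 gamma genes were called lower in ET than in PF and 0 higher in PF than in AD. Pcdhga1 itself was left without a value. Because the count differences of these genes were nearly equal, the loss of calls follows from the subtraction. The log2 fold change of Pcdhga2 for ET over PF was then 0.07 and that of Pcdhga9 was -0.17, and neither passed the test. In PF over AD, Pcdhga8 gave 0.50 with an edgeR adjusted p of 0.00125, past the p-value limit and short of the fold limit. The planned version subtracted the Pcdhga1 count from all gamma genes. There Pcdhga4, which lacks the shared end, was called higher in ET than in PF and lower in PF than in AD. Pcdhgc5, which lacks it too, moved to 1.36 for ET over PF and -1.33 for PF over AD. The gamma sum after subtraction in the genes with the shared end was 4422 ± 802 in ET, 4895 ± 389 in PF and 4537 ± 294 in AD. PF stood at 1.11 times ET and 1.08 times AD. Pcdhgc5, which this version left unsubtracted, by itself had a PF mean 466 normalized counts above ET and 432 above AD. As shares of the gamma counts, not corrected for length, Pcdhgc3 made up 30.7% in ET, 12.2% in PF and 32.2% in AD. Once Pcdhga1 was subtracted, the shares of Pcdhgc3 were 31.4%, 28.1% and 32.9%. For Pcdhgc5 the shares were 31.3%, 8.56% and 31.2%, and 32.2%, 38.6% and 32.1% after subtraction.

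Gamma promoters carry their own short element, which includes the 4 letters CGCT also found inside the beta element. The 7 letters CGCTGTT, chosen after the sequences were seen, occurred in the windows of 11 of 14 gamma genes, of 1 of 17 beta genes (Pcdhb3, where it overlaps the beta element) and in 1.98% of all 33469 windows on either strand. Of the 12 genes with the shared end and a promoter entry, 11 held it, in Pcdhgc3 on the reverse strand only, with Pcdhga1 being the exception, and neither Pcdhga4 nor Pcdhgc5 held it. These lines show the element, in capitals, in 5 gamma genes whose counts were called, in the build GRCr8 and the 5′ to 3′ direction:
Pcdhga2 (chr18:29745078-29745124, plus strand): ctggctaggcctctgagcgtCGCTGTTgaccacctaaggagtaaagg
Pcdhga3 (chr18:29750310-29750356, plus strand): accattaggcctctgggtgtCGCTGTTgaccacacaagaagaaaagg
Pcdhga9 (chr18:29815778-29815824, plus strand): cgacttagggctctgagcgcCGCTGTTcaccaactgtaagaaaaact
Pcdhgb8 (chr18:29839491-29839537, plus strand): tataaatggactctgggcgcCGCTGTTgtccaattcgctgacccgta
Pcdhga12 (chr18:29843857-29843903, plus strand): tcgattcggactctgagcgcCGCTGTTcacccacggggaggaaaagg
Pcdhga1, without the element in its window, differed between PF and the other groups by 1316 normalized counts, and Pcdhga9, with it, by 1321. The core CGCT alone is common, being present on either strand in 27 of 32 members and 60.9% of all windows.

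The ethanol group can be compared with the chow group without the PF libraries. In ET against AD, 0 of 35 members passed an unadjusted p of 0.05, beside 2.74% of all genes, and each had an edgeR adjusted p of 1. Log2 fold changes ran from -0.20 to 0.30 over the 18 beta genes and from -0.13 to 0.34 over the 15 gamma genes, the extremes of the latter being Pcdhga1 (-0.13, SE 0.29) and Pcdhga8 (0.34, SE 0.18). Pcdhgc3 and Pcdhgc5 gave -0.11 (SE 0.11) and 0.02 (SE 0.13). A p that misses the threshold does not show equal levels, and these standard errors bound what 4 against 5 libraries could resolve.

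**Figure D5:**
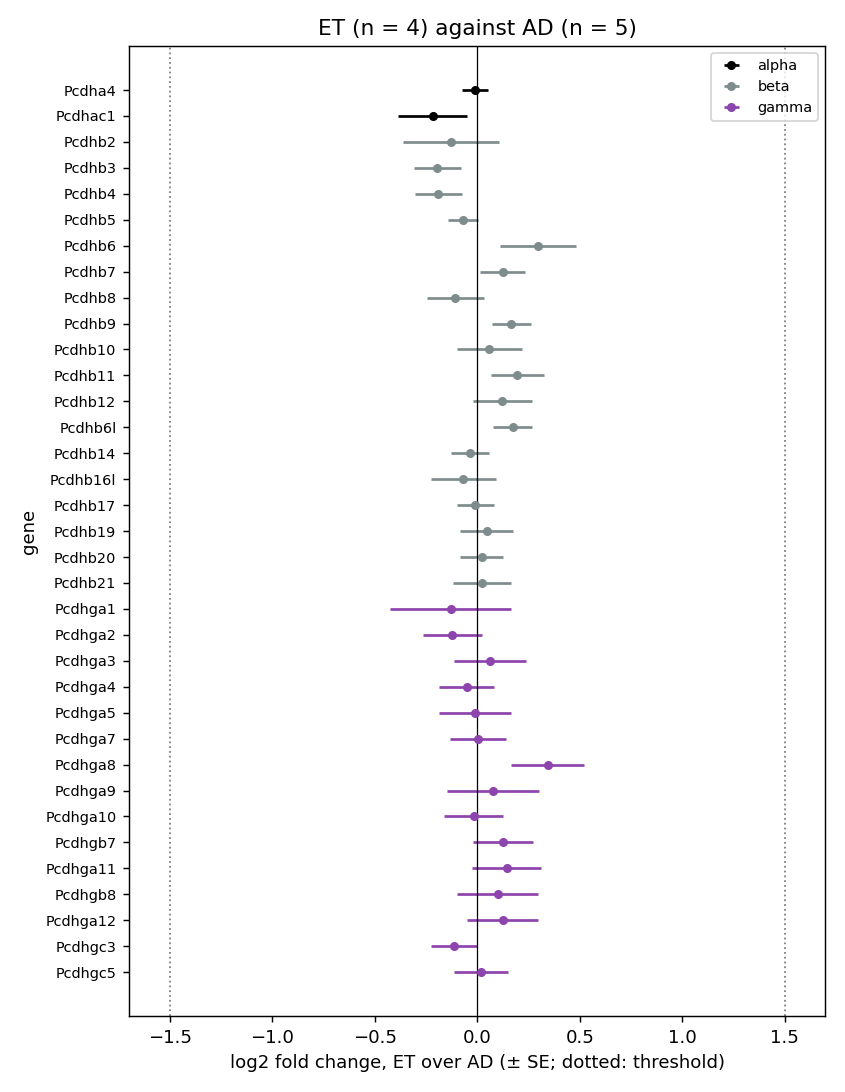
Log2 fold change of ET over AD (± SE) for the 35 tested members, 4 ET against 5 AD libraries, with dotted lines at the fold threshold of 1.5 in either direction. All points lie between -0.22 and 0.34, and no cluster is set off from the others.

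The order of the libraries within a group was shared by most gamma genes in ET and PF and by fewer in AD. ET replicate 1 was the lowest of the 5 ET libraries for 14 of 15 gamma genes and replicate 3 the highest for 12. In PF, replicate 2 was the lowest for 14 and replicate 6 the highest for 13. There 13 of the 15 genes stood above ET and AD by nearly the same count. Whether this is linked to the shared order was not tested. AD replicate 6 was the lowest for 9, and no AD library was the highest for more than 5. The median coefficient of variation over the gamma genes was 23.3% in ET, 7.62% in PF and 10.6% in AD. Sex showed no call among the members, with 0 of 35 called in males against females of ET and PF, where 0.0243% of 16484 genes were called higher and 0.00607% lower in males. At an unadjusted p below 0.05 the count of members was also 0, beside 313 of the 16484 genes.

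Genes known to set the expression of the clusters were taken as a list of 26, among them the architectural factor CTCF and the cohesin subunits, DNA methyltransferases and Smchd1. Of 26 tested, 0 were called in each of the 3 diet comparisons. At an unadjusted p below 0.05 the counts were 0 in ET against PF, 0 in ET against AD and 2 in PF against AD. The shares over all genes in these comparisons were 11.9%, 2.74% and 16.4%. Log2 fold changes for ET over PF ran from -0.13 to 0.11. Ctcf gave 0.05 (SE 0.05), the cohesin gene Rad21 -0.06 (SE 0.06) and its partner Smc1a 0.04 (SE 0.05). Genes of proteins that bind or act below the protocadherins formed a list of 27, of which 0 were called in each comparison. At an unadjusted p below 0.05 there were 3, 0 and 4 of the 27, beside the same shares over all genes. The focal adhesion kinase gene Ptk2, whose kinase is held back by the gamma constant domain, gave 0.11 (SE 0.06) for ET over PF, its relative Ptk2b 0.04 (SE 0.19) and the Src-family kinase gene Fyn 0.12 (SE 0.07). The range over the 27 was -0.28 to 1.04. The 3 with an unadjusted p below 0.05 in ET against PF, named after their values were seen, were the protein kinase C gene Prkcd at 1.04 (SE 0.40), also on the thalamic list, the extracellular matrix gene Reln at -0.28 (SE 0.12) and the kinase gene Rock1 at -0.21 (SE 0.09), with edgeR adjusted p-values of 0.297, 0.365 and 0.386.

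Markers of other cells were examined beside these results. Below an unadjusted p of 0.05 lay 11.9%, 2.74% and 16.4% of all genes in ET against PF, ET against AD and PF against AD. Of 5 oligodendrocyte markers, 4 had an unadjusted p below 0.05 in ET against PF, with a median log2 fold change of 0.41 and a smallest edgeR adjusted p of 0.0277, so that none was called. In PF against AD it was 3 of 5, with a median of -0.29 and a smallest edgeR adjusted p of 0.0366. Their summed normalized counts ran from 257698 to 328359 in ET, from 186685 to 255965 in PF and from 217960 to 309450 in AD, and none of the 5 was at 0. The myelin protein gene Mog gave values of the opposite sign to the other 4, -0.07 (SE 0.11) for ET over PF and 0.14 (SE 0.10) for PF over AD. The summed PF libraries lay below the ET libraries, and the part of these markers in the gamma result was not tested. The 10 choroid plexus markers summed to 995 to 97921 in ET, 461 to 111990 in PF and 121 to 124665 in AD, and the gamma calls were made without the 3 libraries at the upper ends. In the 14 libraries tested the sums still ran from 995 to 15149 in ET, 461 to 16369 in PF and 121 to 2172 in AD. Choroid plexus markers had 0 calls there, with median log2 fold changes of 0.13 for ET over PF, 1.18 for ET over AD and 1.12 for PF over AD, and 0, 3 and 4 of 10 at an unadjusted p below 0.05. Their part in the gamma result was not tested. Thalamic markers had a median log2 fold change of 0.51 for ET over PF over the 5 tested and 0 calls, with 2, 1 and 2 at an unadjusted p below 0.05 in ET against PF, ET against AD and PF against AD. The 5 astrocyte, 4 microglia, 4 endothelial and 9 hippocampal neuron markers had 0 calls in the 3 diet comparisons. At an unadjusted p below 0.05 the counts in the same order of comparisons were 1, 1 and 0 for astrocytes, 2, 1 and 2 for microglia, 0, 0 and 0 for endothelium and 0, 0 and 1 for hippocampal neurons.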

How the data were processed

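RNA from the hippocampus of 17 rats was sequenced as stranded mRNA libraries. The authors trimmed reads with fastp, mapped them to mRatBN7.2 with Bowtie2 2.4.2 and counted fragments on exons with featureCounts 2.0.1 at a minimum mapping quality of 10, allowing reads to count for several features. The annotation release and strand setting are not given in the sources used here. The authors deposited estimated counts, the mean of 3 technical replicates per gene, and these were rounded to whole numbers for the tests here. Columns were assigned to samples through the study's sample names and the titles.

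Counts were scaled by TMM over all 17 libraries (normalized counts). Pairwise tests used edgeR 4.0.16 (R 4.3.3) with filterByExpr, TMM, glmQLFit and glmQLFTest on 14 libraries, without ET replicate 2, PF animal 11f6 and AD replicate 4, the study's final set. Each log2 fold change was divided by the square root of its F statistic to give an SE. Sex was tested with diet as a covariate. Sums, shares and count differences have no test. Named were the first and last variable gene of each cluster, C-type genes, the 5 genes of each cluster with the highest mean count, and all genes called. Pcdhga4, Pcdhb3 and Pcdhb4 lie outside this rule and were named after their values were seen. Scripts were tested on simulated data. The members, lists and thresholds were chosen with earlier results of these data known, and lists hold genes picked from general knowledge. Promoter sequences come from RefSeq (GRCr8). The symbols of 35 of 36 members were found in that build's gene list, which was used for names and ends only. SD and SE describe the spread between libraries. The limit that a count of 0 allows, 3 counts or at most 2.76e-05% of a library, covers counting error only. Alternatives were DESeq2 1.42.0, other filters, scalings and samples, a replicate block, and subtraction of Pcdhga1 counts.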

Additional observations from a re-analysis of the deposited data

Results flagged for a closer look

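Of 78 sets of values examined within diet groups, which did not cover every member, 1 held a library far from the others. Chance alone gives about 1 in 20, so 1 of 78 is no more than chance gives. Pcdhac1 had 35.9 normalized counts in AD replicate 2, while the other 5 AD libraries lay between 21.7 and 26.2. AD replicate 2 is also 1 of the 2 libraries whose Y-linked counts went against the sex label.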

How the results depend on the processing

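The counts of members called did not change in any comparison with DESeq2, other scalings, no filter, all 17 libraries, sex as a covariate or any library left out. With an absolute fold change above 1.5 (linear), 13 gamma genes were called in ET against PF and in PF against AD, Pcdhgc3 being added. Subtracting Pcdhga1 from all gamma genes, or from those with the shared end only (chosen after seeing the data), left 0 gamma genes lower in ET than in PF and 0 higher in PF than in AD. The first version also called 1 gamma gene higher in ET than in PF and 1 lower in PF than in AD, both times Pcdhga4, which lacks the shared end, so the subtraction itself removed its counts. Under both, the sign turned for ET over PF in Pcdhga2 (0.069), Pcdhgb7 (0.20), Pcdhga11 (0.0060 and 0.0061), Pcdhgb8 (0.10) and Pcdhga12 (0.16), and for PF over AD in Pcdhga2 (-0.19), Pcdhgb7 (-0.056) and Pcdhga12 (-0.011). Pcdhgc3, past the p-value limit but not the fold limit, turned too, to 0.0073 and 0.0074 for ET over PF and to -0.12 for PF over AD. Under the first version only, Pcdhgc5, which lacks the shared end, went to 1.36 (edgeR adjusted p = 0.00656) and -1.33 (edgeR adjusted p = 0.000875), short of the fold limit. In PF, subtraction moved the share of Pcdhgc3 to 28.1% and that of Pcdhgc5 to 38.6%.

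Counts over all genes also moved, and the cause was not tested. In ET against PF, genes higher in ET numbered 17 with a fold of 1.5, 10 with technical replicates summed, 3 with sex as a covariate and 2 to 6 with 1 library left out. In ET against AD they numbered 0 to 1 with 1 library left out. In PF against AD, genes lower in PF numbered 18 with a fold of 1.5, 8 without a filter and 8 with replicates summed, and genes higher in PF numbered 485 without a filter. In males against females, genes lower in males numbered 2 with DESeq2 and 1 to 2 with 1 library left out.

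Libraries with the same replicate number did not deviate together in all pairs (correlations from -0.228 to 0.592). In ET against PF the mean over 2 such pairs was 0.294, beside -0.034 for the other pairs. So few pairs cannot decide whether the numbers pair the libraries, and the main fits took them as unpaired. A fit with the replicate number as a block gave 194 genes lower and 3 higher in ET against PF and 0 lower in ET against AD, and kept the count of gamma genes at 12. No blocked fit for sex was run, since among the ET and PF libraries of the final set no number was shared by a male and a female. Depth limits Pcdhb1, at or under 3 raw counts in every library.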
